A study of Danio rerio with 6 samples.

Results

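The core of the circadian clock was followed in zebrafish larvae exposed to a leachate of tire wear particles (TWP), through the 9 genes that the deposited table lists as clocka, clockb, npas2, arntl1a, arntl1b, arntl2, ciarta, bhlhe40 and bhlhe41. They were taken by gene symbol, each matched 1 row of the 24826 genes in the table, and all 9 passed the filter on low counts that left 23761 genes for testing. The labels call the exposed group TWP 700. Its number stands for a grade of treadwear in the titles of the samples and for a concentration in the design text, and serves here only as part of the name. The comparison group received surfactant control medium with 0.001% bovine serum albumin, and whether the leachate medium held albumin is not recorded in the labels. Both groups were wild-type embryos kept 200 to a dish and exposed from 4 to 168 h post-fertilization, with a move to fresh dishes at 72 h. Light was given on a cycle of 14 h light and 10 h dark. Each group had 3 samples, described as biological replicates, and each sample was RNA of 80 whole larvae pooled together. The time of day at which larvae were collected is not given in the labels used here.

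CLOCK and its relative NPAS2 are basic helix-loop-helix PAS proteins that pair with a BMAL protein, encoded by the arntl genes, and the pair switches on genes that carry E-box sequences. Among those genes are the clock's own repressors. PER and CRY proteins, the ciart product (CHRONO in mammals) and the DEC proteins encoded by bhlhe40 and bhlhe41 all hold CLOCK and BMAL back. A second loop acts on the BMAL genes, which ROR receptors activate and REV-ERB receptors repress. Zebrafish keep duplicates of several of these genes, and most of their tissues hold clocks that respond to light directly.

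The activator genes clocka, arntl1a and arntl1b were lower in leachate larvae than in control larvae, each by a little over 2-fold, while the repressor genes ciarta (6.43-fold) and bhlhe41 (2.06-fold) were higher. Of the 9 genes, 2 rose (ciarta and bhlhe41) and 3 fell (clocka, arntl1a and arntl1b) at an adjusted p under 0.05 in edgeR's quasi-likelihood test. Among all genes tested, 15.2% passed in either direction, 7.87% as higher and 7.29% as lower. The other 4 genes (clockb, npas2, arntl2 and bhlhe40) did not pass. The normalised levels of the groups did not overlap in 7 of the 9 genes, and the same held for 35.1% of all genes tested. For clockb and npas2 this depended on the scale, as given below. Levels below are counts scaled to library size (CPM) on TMM-scaled library sizes unless given as the authors' length-corrected values (TPM), and each ± after a level is an SD over 3 samples. In pools of whole larvae, fewer cells of a type and less RNA per cell cannot be told apart.

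**Figure D1:**
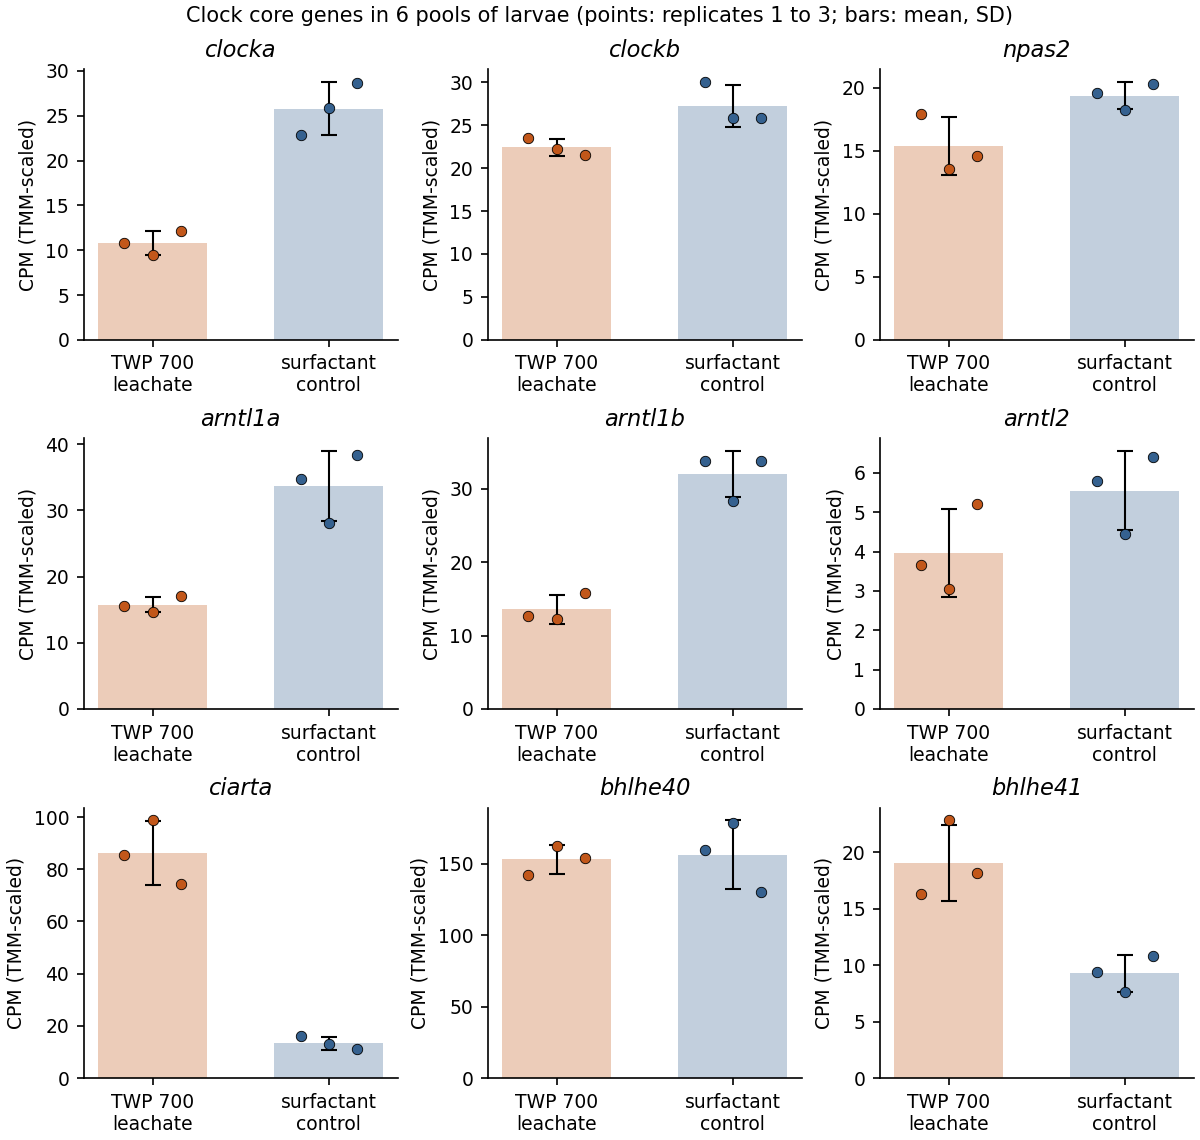
Normalised level (CPM) of the 9 clock core genes in TWP 700 leachate pools (left of each panel, n = 3) and surfactant control pools (right, n = 3). Points are samples in the order of replicates 1 to 3, bars are means and error bars are SD. In clocka, arntl1a and arntl1b every leachate point lies below every control point, in ciarta and bhlhe41 every leachate point lies above, and in bhlhe40 the points overlap.

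Read totals were between 37460304 and 42773836 counts in leachate samples and between 37030725 and 48431952 in control samples, so that 3 counts were worth at most 0.0817 CPM. The second principal component, with 20.4% of the variance, placed leachate 1 at 18.1 and leachates 2 and 3 at -6.85 and -6.24. On the same axis control 2 was at 45.4, with control 1 at -17.7 and control 3 at -32.7. Tissue markers of muscle, liver, pancreas, retina, brain, blood, skin, lens and gut were present in all pools, with 31 of 33 listed markers in the table and the lowest at 1.24 CPM. In edgeR's test 4 of these 31 markers rose and 8 fell, against 7.87% and 7.29% of all genes tested. For 6 of the 9 tissues the summed marker level overlapped between groups, which does not show that their single markers were alike. The 5 retina and pineal markers each had groups that did not overlap, as did 35.1% of all genes tested. Of these markers arr3a rose (log2 0.75), rho, exorh and aanat2 fell (log2 -0.50, -0.82 and -0.95) and gnat2 did not pass (log2 -0.29). The blood marker alas2 rose 2.54-fold, and hbbe1.1 (log2 0.075) did not pass. Of the 4 liver markers tfa rose 1.87-fold. The liver markers fabp10a (log2 -0.29), ambp (log2 -0.15) and apoa2 (log2 0.28) did not pass. The 4 brain markers summed to between 524 and 549 CPM in leachate pools and between 577 and 601 CPM in control pools, but went both ways. Of these, elavl3 rose (log2 0.45, edgeR adjusted p = 0.0334), mbpa fell (log2 -0.53, edgeR adjusted p = 0.0159), and snap25a (log2 0.036) and gfap (log2 -0.077) did not pass. Of the 3 skin markers 1 fell, and they summed to between 9440 and 14676 CPM in leachate pools and between 16901 and 20086 CPM in control pools. All 3 lens markers fell, and they summed to between 1339 and 1997 CPM in leachate pools and between 2417 and 3478 CPM in control pools. Whether these marker differences stand for differences in tissue content, and their part in the clock gene results, was not tested.

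Of the 3 CLOCK-family genes, clocka passed the test as lower, and clockb and npas2 did not pass. clocka encodes a CLOCK protein, a partner of BMAL at E-boxes. It was at 10.8, 9.47 and 12.1 CPM in leachate samples 1 to 3, against 22.8, 25.9 and 28.7 CPM in control samples 1 to 3. The highest leachate pool stood well under the lowest control pool. The log2 fold change was -1.26 ± 0.13 (SE), a 2.39-fold lower level, with an adjusted p = 0.000195 (edgeR). Only 2.39% of all genes tested had a larger fold change in either direction.

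The duplicate gene clockb encodes a second CLOCK protein. It was at 23.5, 22.2 and 21.5 CPM in leachate samples, against 30.0, 25.8 and 25.8 CPM in control samples. Every leachate pool was below every control pool in CPM, but by a small margin. On the TPM scale the groups overlapped, with leachate 1 at 8.43 and controls 2 and 3 at 7.10 and 6.72. The log2 fold change of clockb, -0.28 (95% interval -0.52 to -0.040), did not pass (edgeR adjusted p = 0.110). The third gene, npas2, encodes a PAS protein that can take the place of CLOCK in mammals. It was at 18.0, 13.5 and 14.6 CPM in leachate samples, against 19.6, 18.2 and 20.3 CPM in control samples. Its log2 fold change was -0.33 (95% interval -0.62 to -0.048) and did not pass (edgeR adjusted p = 0.110). In CPM leachate 1 lay only just under the lowest control, and without it npas2 passed (edgeR adjusted p = 0.0377, log2 -0.46). In TPM leachate 1 (5.13) was above all controls (4.78, 4.98 and 4.89), so that the groups overlapped. Without control 2 and leachate 1 together both clockb (edgeR adjusted p = 0.0298) and npas2 (0.00445) passed as lower. More genes passed in that setting in general, with 2606 of 23855 tested called lower, against 1731 of 23761 in the main fit. Over the 18 alternative settings described below, npas2 passed in only 2 and clockb in only 1.

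The ratio of clocka to clockb within a sample does not depend on scaling between libraries. The log2 ratio of their counts was -1.12, -1.23 and -0.83 in leachate samples, against -0.39, 0.0046 and 0.15 in control samples. The 2 genes had similar counts in control pools, while clocka was the lower of the pair in all leachate pools. The difference of -0.98 was larger than the pooled SD of 0.25. An exact two-sided permutation test gave p = 0.1, the smallest that 3 samples against 3 allow, and 0.15 after adjustment over the 6 ratios compared.

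On the length-corrected TPM scale the CLOCK family as a whole changed less than clocka did. Its 3 genes summed to 16.7, 12.6 and 14.1 TPM in leachate samples, against 20.0, 18.3 and 17.6 TPM in control samples. The share of clocka in that sum was 19.0, 18.3 and 21.2% in leachate samples, against 28.7, 34.0 and 33.9% in control samples. clockb supplied the largest share in both groups, 51.9 ± 3.35% in leachate and 41.5 ± 5.11% in control samples. The share of npas2 was 28.6 ± 2.41% in leachate and 26.3 ± 2.09% in control samples, a difference within about the spread between samples.

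The BMAL genes fell as a pair. BMAL1 is the partner without which the mammalian clock stops, and zebrafish have the duplicates arntl1a and arntl1b. arntl1a was at 15.6, 14.7 and 17.0 CPM in leachate samples, against 34.7, 28.0 and 38.3 CPM in control samples. arntl1b was at 12.7, 12.2 and 15.8 CPM in leachate samples, against 33.7, 28.4 and 33.8 CPM in control samples. In both genes the lowest control pool, control 2, was still above the highest leachate pool, leachate 3. The log2 fold change was -1.10 ± 0.13 (SE) for arntl1a (2.14-fold lower, edgeR adjusted p = 0.00042) and -1.24 ± 0.13 for arntl1b (2.36-fold lower, edgeR adjusted p = 0.000205).

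The duplicates were close to each other in every pool. The log2 ratio of arntl1a to arntl1b counts was 0.30, 0.26 and 0.10 in leachate samples, against 0.039, -0.018 and 0.18 in control samples. These ranges overlapped, and the difference of 0.15 had an exact two-sided permutation p = 0.2 (0.24 adjusted over the 6 ratios). The log2 ratio of arntl1b to clocka was likewise 0.23, 0.37 and 0.39 in leachate samples, against 0.56, 0.13 and 0.23 in control samples, a difference of 0.018 (exact p = 1). The sign of that last difference turned when single samples were left out, between -0.071 without control 2 and 0.15 without control 1.

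arntl2 encodes the other BMAL protein and was the least abundant gene of the 9. It was at 3.65, 3.05 and 5.20 CPM in leachate samples, against 5.79, 4.44 and 6.40 CPM in control samples. Leachate 3 was above control 2, so the groups overlapped. The log2 fold change of -0.49 (95% interval -0.98 to -0.00093) did not pass (edgeR adjusted p = 0.167).

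Summed over the 3 BMAL genes, TPM was 19.1, 15.12 and 19.3 in leachate samples, against 38.0, 29.9 and 33.7 in control samples. The ratio of summed BMAL TPM to summed CLOCK TPM was 1.14, 1.20 and 1.37 in leachate samples, against 1.90, 1.63 and 1.92 in control samples. BMAL transcripts were in excess of CLOCK transcripts in every pool, by a smaller factor in the leachate pools. arntl1a made up 48.0 ± 2.65% of the BMAL sum in leachate and 47.7 ± 1.11% in control samples. arntl2 made up 10.3 ± 1.75% in leachate and 6.75 ± 0.49% in control samples. TPM places the median gene 0.16 higher on the log2 scale in leachate than in control samples, so sums on this scale lie somewhat higher in leachate samples than they would relative to the median gene.

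**Figure D2:**
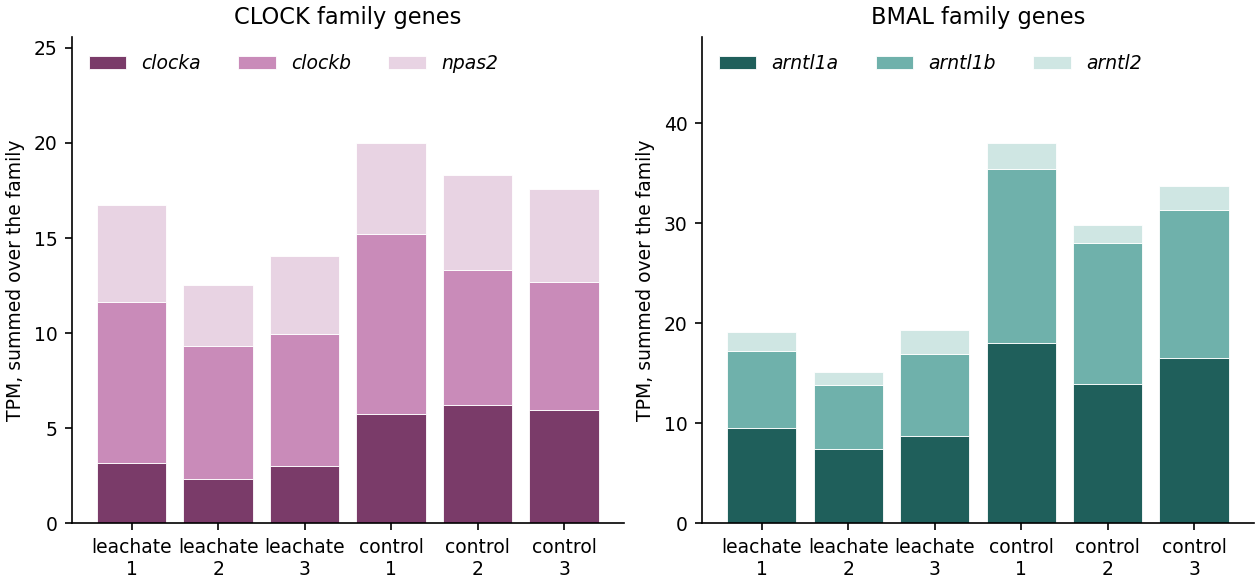
TPM of the CLOCK-family genes (left) and BMAL-family genes (right), stacked by gene, in each of the 3 leachate and 3 control samples. The clocka segment is between 2.30 and 3.18 TPM in leachate samples and between 5.74 and 6.23 TPM in control samples, and the BMAL stacks stand at no more than 19.3 TPM in leachate samples and at no less than 29.9 TPM in control samples.

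Of the repressor genes, ciarta showed the largest change of the 9. In mammals its counterpart CHRONO binds BMAL1 and recruits histone deacetylases to E-boxes. ciarta was at 85.4, 98.7 and 74.2 CPM in leachate samples, against 16.0, 13.1 and 11.0 CPM in control samples. The lowest leachate pool was several times the highest control pool. The log2 fold change was 2.68 ± 0.16 (SE), a 6.43-fold higher level, with an edgeR adjusted p = 5.19e-06, and it was the rise ranked 25 among all 23761 genes tested.

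The DEC genes differed from each other. bhlhe41 (DEC2) was at 16.3, 22.8 and 18.1 CPM in leachate samples, against 9.41, 7.60 and 10.8 CPM in control samples. It rose 2.06-fold, with no overlap between groups (log2 1.04 ± 0.17 SE, edgeR adjusted p = 0.00204). bhlhe40 (DEC1), the most abundant of the 9 genes, was at 142, 163 and 154 CPM in leachate samples, against 160, 178 and 131 CPM in control samples. Control samples both above and below all leachate pools were seen, and the log2 fold change was -0.030 (95% interval -0.34 to 0.28, edgeR adjusted p = 0.915).

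Within a sample, the log2 ratio of bhlhe40 to bhlhe41 counts was 3.13, 2.83 and 3.09 in leachate samples, against 4.09, 4.55 and 3.60 in control samples. The groups did not overlap, and the difference was -1.06 with a pooled SD of 0.36 (exact permutation p = 0.1, adjusted 0.15). bhlhe41 supplied 18.4 ± 1.69% of the TPM of the pair in leachate samples and 9.97 ± 2.95% in control samples.

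The repressor ciarta was set against the activator genes arntl1b and clocka within each sample. The log2 ratio of ciarta to arntl1b counts was 2.75, 3.01 and 2.23 in leachate samples, against -1.07, -1.11 and -1.62 in control samples. ciarta counts thus exceeded arntl1b counts in all leachate pools and were below them in all control pools. The difference of 3.93 on the log2 scale was 15.3-fold (pooled SD 0.36, exact permutation p = 0.1, adjusted 0.15). Against clocka the same ratio was 2.98, 3.38 and 2.62 in leachate samples, against -0.51, -0.98 and -1.38 in control samples, a difference of 3.95 (exact permutation p = 0.1, adjusted 0.15). On the length-corrected TPM scale ciarta was at 47.3, 45.4 and 34.4 TPM in leachate samples and at 7.54, 5.92 and 4.29 TPM in control samples. clocka was at 3.18, 2.30 and 2.98 TPM in leachate samples and at 5.74, 6.23 and 5.96 TPM in control samples. On that scale ciarta was above clocka in all leachate pools and in control 1, and below it in controls 2 and 3. Per transcript length, ciarta stood at 2.48, 3.01 and 1.78 times the summed BMAL TPM in leachate samples and at 0.198, 0.198 and 0.127 times in control samples.

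**Figure D3:**
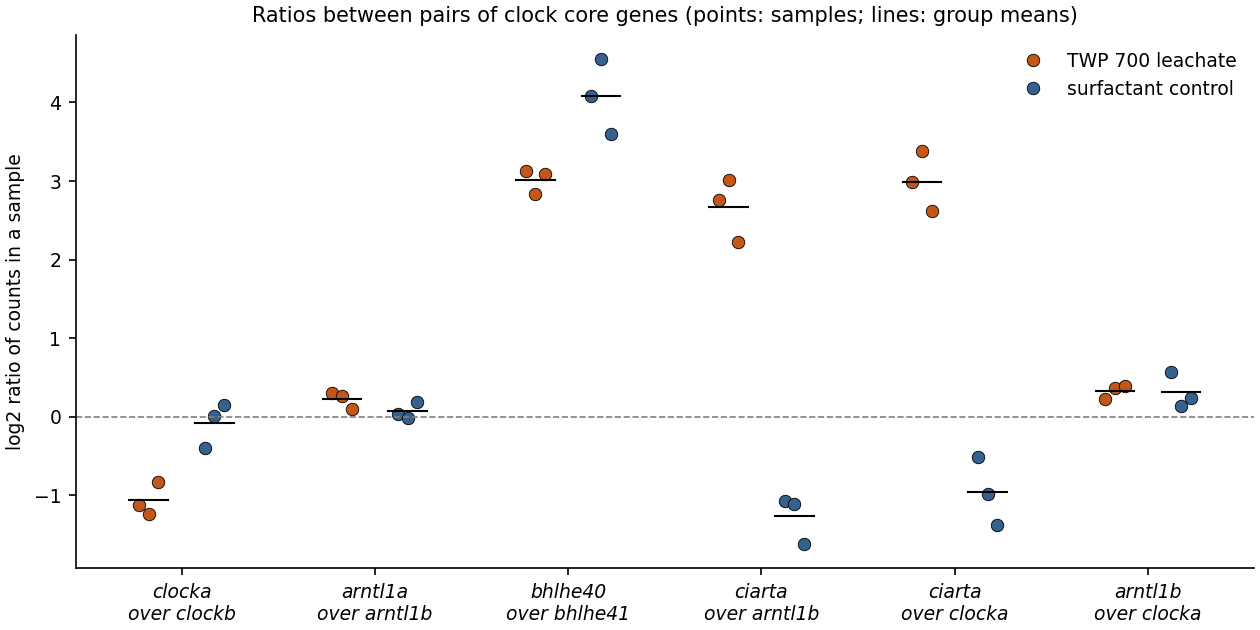
log2 ratio of the read counts of 2 clock core genes within a sample, for 6 pairs, in leachate samples (orange, left of each pair) and control samples (blue, right). Points are the 3 samples of a group and lines are group means. Both ciarta ratios lie above 2 in leachate samples and below -0.5 in control samples, while the ratios of arntl1a to arntl1b and of arntl1b to clocka overlap.

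The order of the 9 genes by TPM differed between the groups. In leachate samples bhlhe40 (72.5 ± 3.66 TPM) was followed by ciarta (42.4 ± 7.00), bhlhe41 (16.3 ± 1.89), arntl1a (8.56 ± 1.05), clockb (7.47 ± 0.83), arntl1b (7.43 ± 0.99), npas2 (4.16 ± 0.94), clocka (2.82 ± 0.46) and arntl2 (1.87 ± 0.51). Here arntl1a overlapped with clockb, clockb with arntl1b, and clocka with arntl2. In control samples bhlhe40 (66.5 ± 15.2 TPM) was followed by arntl1a (16.2 ± 2.04), arntl1b (15.4 ± 1.76), clockb (7.76 ± 1.49), bhlhe41 (7.05 ± 0.92), clocka (5.98 ± 0.24), ciarta (5.92 ± 1.62), npas2 (4.88 ± 0.10) and arntl2 (2.30 ± 0.40). The arntl1 genes overlapped with each other, and so did each neighbour in the run from clockb to npas2. ciarta took place 2 in leachate samples and place 7 in control samples.

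Pools of one group also differed in the CPM of several of the genes together. Among leachate samples, leachate 2 had the highest ciarta level and the lowest clocka, arntl1a, arntl1b and arntl2 levels, and leachate 3 had the lowest ciarta level and the highest levels of those 4 genes. Among control samples, control 1 had the highest ciarta level and the lowest clocka level, and control 3 the reverse, but control 1 was not the lowest in any arntl gene. clockb and npas2 had other orders, with clockb lowest in leachate 3 (21.5 CPM) and npas2 highest in leachate 1 (18.0 CPM). On the TPM scale leachate 2 was still lowest in clocka and the arntl genes. There, however, leachate 1 was highest in ciarta (47.3 TPM), clocka (3.18 TPM) and arntl1a (9.53 TPM), and control 2 was highest of the controls in clocka (6.23 TPM). With 3 pools a group these orders are a description. The coefficient of variation of CPM was between 4.44% (clockb) and 28.0% (arntl2) in leachate samples and between 5.57% (npas2) and 18.8% (ciarta) in control samples.

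**Figure D4:**
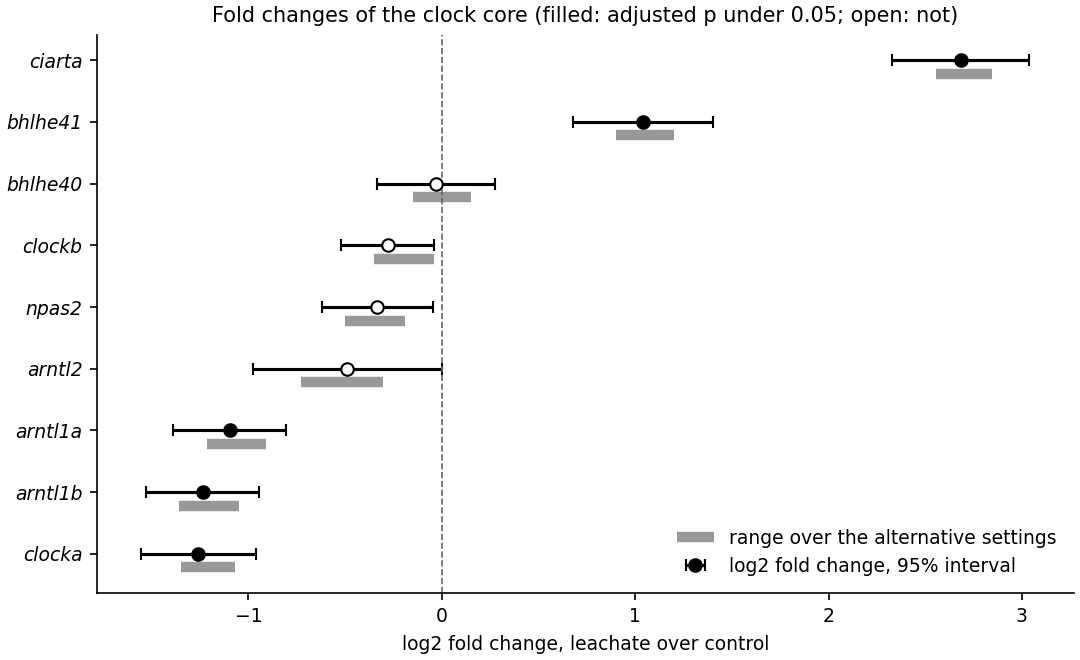
log2 fold change of leachate over control for the 9 genes, with the 95% interval from edgeR (points with whiskers; filled where adjusted p was under 0.05) and the range over the 18 alternative settings together with the reported value (grey bars). The intervals of ciarta and bhlhe41 lie above 0, those of clocka, arntl1a and arntl1b lie below -0.80, and that of bhlhe40 spans 0.

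The calls of ciarta, bhlhe41, clocka, arntl1a and arntl1b held in all 18 alternative settings. The largest adjusted p over those settings was 0.0152 for bhlhe41, 0.00452 for arntl1a, 0.00253 for arntl1b, 0.00215 for clocka and 0.000791 for ciarta. Their log2 fold changes ranged over the settings from 2.56 to 2.84 for ciarta, 0.90 to 1.20 for bhlhe41, -1.35 to -1.07 for clocka, -1.21 to -0.91 for arntl1a and -1.36 to -1.05 for arntl1b.

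Among the other genes of the clock and its relatives, 21 of 101 tested rose and 16 fell in edgeR's test, against 7.87% and 7.29% of all genes. The median log2 fold change was -0.011 over these 101 genes and -0.0026 over all genes. All 4 period genes rose, with per1a at 30.9 ± 9.39 CPM in leachate and 2.30 ± 0.25 CPM in control samples (13.4-fold, edgeR adjusted p = 2.09e-05). Of 7 genes tested in the cryptochrome class, which counts the photolyase gene cry5, 3 rose and 3 fell. cry5, which encodes a photolyase that repairs light-damaged DNA, had the largest rise (37.4 ± 4.69 CPM in leachate and 12.0 ± 1.92 CPM in control samples, log2 1.65, edgeR adjusted p = 5.19e-05). cry1bb, which encodes a repressor of CLOCK and BMAL, had the largest fall, at 13.8, 12.8 and 18.7 CPM in leachate samples, against 70.2, 57.5 and 81.7 CPM in control samples (log2 -2.21, edgeR adjusted p = 4.18e-05).

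In the loop that acts on the BMAL genes, edgeR's test called REV-ERB genes in both directions and 2 ROR genes, both as lower. Of all genes tested 7.87% rose and 7.29% fell. Of 5 REV-ERB genes 2 rose and 1 fell. nr1d1, which encodes the repressor REV-ERB alpha, was at 55.2, 58.3 and 34.2 CPM in leachate samples, against 3.99, 2.94 and 4.32 CPM in control samples (13.1-fold higher, edgeR adjusted p = 3.26e-05). nr1d4b had the fall, at 1.14 ± 0.22 CPM in leachate and 2.97 ± 0.64 CPM in control samples (log2 -1.38, edgeR adjusted p = 0.00473). Of 5 ROR genes 2 fell, led by rorcb at 6.06, 5.89 and 7.17 CPM in leachate samples, against 55.9, 40.9 and 64.2 CPM in control samples (8.43-fold lower, edgeR adjusted p = 4.17e-06).

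Clock output genes that act at D-box sequences were counted by type, with no test between the types. The shares over all genes tested were 7.87% higher and 7.29% lower in edgeR's test. Of 6 PAR bZIP genes, which encode activators at these sequences, 4 rose and hlfa (log2 -0.24) and hlfb (log2 -0.38) did not pass. dbpa was at 11.3 ± 1.91 CPM in leachate and 2.01 ± 0.63 CPM in control samples (5.60-fold, edgeR adjusted p = 8.73e-05). Of 5 NFIL3 genes tested, whose mammalian counterpart is a repressor at the same sequences, 4 fell and nfil3-6 (log2 -0.29) did not pass. nfil3-2 was at 7.72 ± 1.89 CPM in leachate and 76.6 ± 23.3 CPM in control samples (9.91-fold lower, edgeR adjusted p = 0.000307).

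Of 16 kinase and F-box genes that act on clock proteins, 2 fell, where 7.29% of all genes tested fell and 7.87% rose. The larger fall was in fbxl3l, related to the F-box gene that marks cryptochromes for breakdown, at 0.349 ± 0.106 CPM in leachate and 3.62 ± 1.19 CPM in control samples (10.3-fold lower, edgeR adjusted p = 0.000141). Of 16 coregulator genes 2 rose and 1 fell (4 rose with library totals as scaling), and both that rose encode CIPC, a protein that binds CLOCK and represses it in mammals. cipca was at 5.25, 5.87 and 5.89 CPM in leachate samples, against 1.47, 0.980 and 1.72 CPM in control samples (log2 2.02, edgeR adjusted p = 0.000229). cipcb, named here after its value was seen, was at 24.5 ± 1.06 CPM in leachate and 8.94 ± 1.36 CPM in control samples (log2 1.45, edgeR adjusted p = 7.92e-05). sirt1, which encodes a deacetylase that acts on BMAL1 in mammals, fell to 35.5 ± 2.75 CPM in leachate samples, against 54.0 ± 4.07 CPM in control samples (log2 -0.61, edgeR adjusted p = 0.00445). The sirt1 call was lost on the TPM scale (adjusted p = 0.0634, limma).

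**Figure D5:**
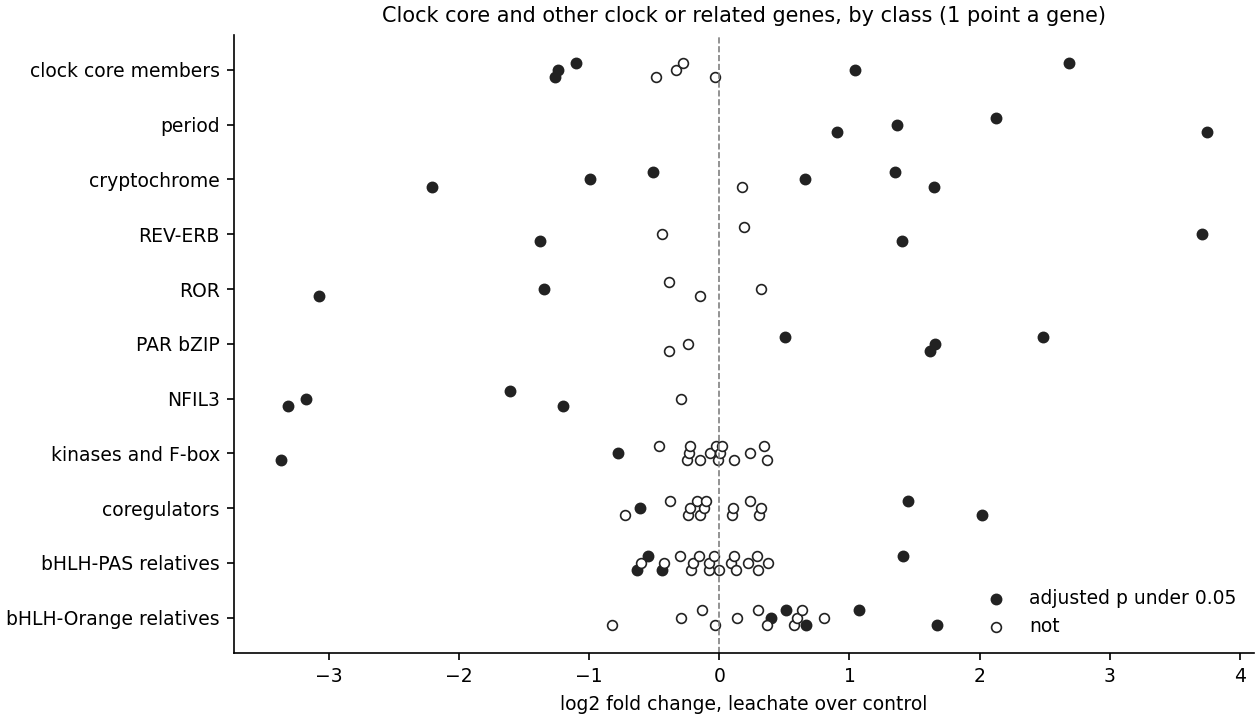
log2 fold change of leachate over control, 1 point a gene, for the 9 clock core genes and for 10 classes of other clock or related genes (filled: edgeR adjusted p under 0.05). All 4 period genes lie to the right of 0, all 5 NFIL3 genes to the left, and genes of the cryptochrome class, which counts cry5, on both sides.

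Genes related to the 9 by protein family, but outside the clock, were also followed. Of 21 bHLH-PAS relatives tested, 1 rose and 3 fell, where 7.87% of all genes tested rose and 7.29% fell. The gene that rose was hif1al, a relative of the hypoxia-inducible factor genes, at 284 ± 34.7 CPM in leachate and 107 ± 34.0 CPM in control samples (log2 1.41, edgeR adjusted p = 0.00162). The fall of the coactivator gene ncoa1 (18.9 ± 2.09 CPM in leachate and 29.3 ± 7.63 CPM in control samples, log2 -0.63, edgeR adjusted p = 0.0319) passed in 12 of 18 settings and was lost without leachate 2 (0.128) or leachate 3 (0.113). The count of relatives that fell was 0 with library totals as scaling, on the log2(TPM + 0.1) scale, at an adjusted p under 0.01 and without leachate 2. It was 1 without control 1 and 6 without control 2 and leachate 1 together. The count of relatives that rose was 3 without control 2, with or without leachate 1. Lower calls over all genes, 1731 as reported, also moved. They were 868 with library totals, 627 on the TPM scale, 692 at an adjusted p under 0.01 and 896 without leachate 2. Without control 1 they were 908, and without control 2 and leachate 1 together 2606. Higher calls, 1871 as reported, were 2063 without control 2 and 2648 without control 2 and leachate 1.

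Of 16 bHLH-Orange relatives, which share the Orange domain with the DEC proteins, 5 rose, where 7.87% of all genes tested rose. hes2.1 had the largest rise but a low level, 0.569 ± 0.106 CPM in leachate and 0.179 ± 0.048 CPM in control samples (log2 1.67, edgeR adjusted p = 0.0203). Its call was lost without control 1 (0.0894), leachate 2 (0.0594) or leachate 3 (0.0739). The number of these relatives that rose was 1 without control 1, leachate 2 or leachate 3, 2 without control 3, 2 with the replicate number as a block, 1 at an adjusted p under 0.01 and 8 without control 2 and leachate 1 together. Higher calls over all genes, 1871 as reported, were 970 without control 1, 1128 without leachate 2 and 1123 without leachate 3. They were 1551 without control 3, 1317 with the block and 796 at an adjusted p under 0.01. Without control 2 and leachate 1 together they were 2648.

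In edgeR's test no ROR, NFIL3 or kinase and F-box gene rose and no period, PAR bZIP or bHLH-Orange gene fell. DESeq2 and limma-voom also had a count of 0 in each of these. Of all genes tested 7.87% rose and 7.29% fell in edgeR's test. These classes held between 4 and 16 tested genes, so that a count of 0 says little in classes of this size. With library totals as scaling 1 ROR gene and 2 kinase or F-box genes were called higher. The number of PAR bZIP genes called lower was 1 without control 2 and 2 without control 2 and leachate 1 together. At an unadjusted p under 0.05 in edgeR, 1 ROR gene and 2 kinase or F-box genes were higher, 1 PAR bZIP gene and 1 bHLH-Orange gene were lower, and the counts for NFIL3 and period genes were 0. Over all genes tested, 15.2% were higher and 14.6% lower at that unadjusted threshold.

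The genes beside the 9 on their chromosomes were tested in the same fit. In the gene order of RefSeq's GRCz12tu assembly, used here for names and order only, the 9 genes have 18 nearest protein-coding neighbours, of which 17 were tested. In edgeR's test 0 of these 17 passed, as in DESeq2 and limma-voom, against 15.2% of all genes tested. At an unadjusted p under 0.05 in edgeR, 1 was higher and 2 were lower, where 15.2% of all genes were higher and 14.6% lower. For ciarta the neighbours were rprd2a (log2 -0.51, edgeR adjusted p = 0.158) and mrps21 (log2 0.29, edgeR adjusted p = 0.198). For clocka they were nmu (log2 -1.05, edgeR adjusted p = 0.151) and tmem165 (log2 -0.12, edgeR adjusted p = 0.558). arntl1a and arntl1b each lie next to a btbd10 duplicate, btbd10a (log2 -0.27, edgeR adjusted p = 0.171) and btbd10b (log2 -0.0053, edgeR adjusted p = 0.982). arntl2 and bhlhe41 lie on the same chromosome with 12 protein-coding genes between them. Of this pair bhlhe41 rose and arntl2 did not pass.

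Likeness of pattern was measured as the root mean square (RMS) difference between log2 CPM profiles over the 6 samples, each centred on its own mean, among 14960 named genes with a mean of at least 2 CPM. Since the 6 samples form 2 groups, any gene with a similar fold change and steady replicates comes close by this measure. Nearest to ciarta was dbpa (RMS 0.16), the PAR bZIP gene above, followed by the complement factor H-like gene cfhl2 (0.23), the apolipoprotein gene apoa4a (0.25) and the zinc exporter gene slc30a1b (0.28). Nearest to arntl1b were the cytochrome P450 gene cyp2u1 (0.095), the complement gene bfb (0.097), the ROR gene rorca (0.10) and the ankyrin repeat gene ankrd33ba (0.10). Nearest to clocka were the red cone opsin gene opn1lw2 (0.089), stoml3a (0.10), tmx3 (0.10) and the lens crystallin gene cryba1l2 (0.13). Among the 9 genes themselves the closest pairs were arntl1a with arntl1b (RMS 0.11), clockb with npas2 (0.13) and clocka with arntl1b (0.14).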

How the data were processed

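RNA of integrity number above 7.0 went, after removal of ribosomal RNA, into stranded total RNA libraries, per the labels' protocols. The submitters' processing notes name HISAT2, StringTie 2.1.3b, DESeq2 and the build GRCz11 without saying what each did. Per the file headers, the deposited values are read counts, TPM and FPKM per gene. The counting rule and strand setting were not given in the sources used here. Reads of near-identical copies and of overlapping or antisense genes are therefore uncertain. FPKM was not used. The smallest count in the table was 1.

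The deposited counts were tested with edgeR 4.0.16 (R 4.3.3): TMM scaling, its expression filter by group, the robust quasi-likelihood test of the leachate group over the control group, and Benjamini-Hochberg adjustment over 23761 genes. SE is the log2 fold change divided by the square root of F, and intervals use the test's degrees of freedom. The deposited TPM gave levels compared between genes. Ratios of 2 genes were tested by exact two-sided permutation over samples. Libraries of a group differed beyond sampling noise (chi-square over its degrees of freedom 8.53 or more). Beyond the protocol's word "biological", nothing shows how separate the replicate pools were, so p-values may cover technical spread only.

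The genes and lists were chosen with earlier results of these data known. Text names all 9 genes, the called gene with the largest rise and fall in each class, and the 4 genes nearest in profile to ciarta, clocka and arntl1b. Of 149 symbols listed as classes or markers, 133 matched the table. The alternatives covered scaling by RLE, upper quartile or library totals, no filter, at least 1 CPM in 3 samples, the robust option off, DESeq2 1.42.0, limma-voom (limma 3.58.1), an adjusted p under 0.01, a replicate block and samples left out. limma on log2(TPM + 0.1) was chosen after seeing the data. edgeR, limma-voom and DESeq2 were also run on simulated counts with planted changes, and the outcome is not given here. That simulation did not cover the permutation tests, the TPM fit or pools unlike the rest of their group.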

Additional observations from a re-analysis of the deposited data

How the results depend on the processing

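Calls over all genes numbered 3602. They were between 1878 (without control 1) and 4059 (without control 2) with 1 sample left out, with 2024 without leachate 2 and 2051 without leachate 3, and 1488 at an adjusted p under 0.01. The most calls, 5254, came without control 2 and leachate 1 together, with 2606 lower against 1731 as reported. The clock core had 2 genes called higher in each setting, and 3 called lower in each except with samples left out, where it was 4 without leachate 1 and 5 when control 2 and leachate 1 were both left out. Library totals as scaling moved the log2 fold change of the median gene to 0.13 and gave 2809 higher and 868 lower calls, against 1871 and 1731 with TMM. On the log2(TPM + 0.1) scale there were 2482 higher and 627 lower calls, and 10 pathway genes fell in place of 16. The log2 fold change of bhlhe40, not called in any setting, was 0.091 with library totals, 0.15 with TPM, 0.13 without control 2 and leachate 1 together, and between -0.15 and 0.075 with 1 sample left out, being 0.020 without leachate 1. The log2 ratio of arntl1b to clocka was -0.020 without control 2 and leachate 1 together and between -0.071 and 0.15 with 1 sample left out (-0.019 without control 3, -0.012 without leachate 3 and -0.0012 without leachate 2). The other ratios kept their direction and stayed within 1 SD. The cause of these shifts was not tested.

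The labels do not say whether a replicate number marks a shared dish or day across groups. The correlations of same-numbered deviations were -0.038, -0.086 and 0.030, and those of different-numbered samples ran from -0.093 to 0.105. With 3 samples a group these values cannot decide whether the samples were paired. With the replicate number as a block, 2565 genes passed over all, 2 clock core genes rose, 3 fell, and 17 pathway genes rose and 15 fell. With same-numbered samples paired, an exact sign-flip test of the ratios could not go below p = 0.25. Depth limits little for the 9 genes, whose lowest count was 133 (arntl2 in leachate 2).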
